A study of Mus musculus with 15 samples.

Results

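The 7 genes described here belong to a pair of mouse gene families that are transcribed at the 2-cell stage. Tcstv1 and Tcstv3 are the 2 named Tcstv genes, and Usp17la, Usp17lb, Usp17lc, Usp17ld and Usp17le are the 5 named Usp17l genes. They were taken by gene symbol, and all 7 were found among the 51627 genes of the stem cell table and among the 53564 genes of the embryo table. RNA-Seq had been done on 15 libraries in 4 groups. J1 is a mouse embryonic stem cell (ESC) line, kept here without feeders, and it gave 2 libraries with the genotype label Zscan4 OE (overexpression) and 2 wild-type control libraries. Embryos at the 2-cell stage gave 6 libraries labelled Zscan4 RNAi and 5 wild-type control libraries. The labels name no construct, RNAi reagent, strain, clone or number of embryos for these groups. Nothing in them says that libraries of a group came from separate cultures or embryo pools, so the p-values speak to the spread among the libraries at hand, which may be technical.

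In the mouse, zygotic transcription starts in earnest at the 2-cell stage, and a set of multicopy genes is switched on there for a short time. A small fraction of cultured ESCs passes through a similar state, known as 2C-like, in which Zscan4, whose genes encode zinc finger proteins with a SCAN domain, is transcribed. The Tcstv genes (2-cell-stage, variable group) were first described from cDNA of 2-cell embryos, and Tcstv1 and Tcstv3 have been linked to telomere lengthening in mouse ESCs. The Usp17l genes encode ubiquitin-specific proteases, cysteine proteases that take ubiquitin off other proteins. In RefSeq their older names are Dub1 for Usp17la, Dub1a for Usp17lb, Dub2 for Usp17lc, Dub2a for Usp17ld and Dub3 for Usp17le. Dub1 and Dub2 are known as early response genes to cytokines in mouse lymphocytes, and the human counterpart of Dub3 is known to stabilise the cell cycle phosphatase CDC25A.

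Both families lie in clusters (GENCODE vM21, mm10). Tcstv1 stands on the minus strand of chromosome 13 at positions 119893388 to 119894785 and Tcstv3 on the plus strand at 120316878 to 120318178. All 5 Usp17l genes are on chromosome 7. Usp17ld (103249737 to 103252505, minus strand) and Usp17lc (103415072 to 103419880, plus strand) form one pair. Usp17le (104768049 to 104777470, minus strand), Usp17lb (104840257 to 104842603, minus strand) and Usp17la (104857009 to 104862667, plus strand) lie further along the chromosome. Each is annotated as protein coding. Usp17lc overlaps the small RNA gene Gm25774, which makes its value uncertain; no annotated gene overlaps the other 6.

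The members are close copies, which limits how far single copies can be told apart. The longest transcripts of Tcstv1 and Tcstv3 were 92.2% identical over 746 aligned bases. Among the Usp17l transcripts identity ran between 90.4% (Usp17lb and Usp17le) and 97.9% (Usp17lc and Usp17ld). Counted in stretches of 50 bases, 51.1% of Usp17ld and 44.7% of Usp17lc also occurred in another gene, mostly in each other. That share was 31.4% for Tcstv3, 29.8% for Usp17le, 21.4% for Usp17lb, 20.1% for Usp17la and 14.96% for Tcstv1. How reads matching several genes were counted is not given in the sources used here, so the split between copies, above all between Usp17lc and Usp17ld, is uncertain, and sums over each family are given beside the single genes.

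RefSeq promoter windows, 250 bases before to 50 bases after the annotated start, were at hand for 4 of the 7 genes. They are shown because these 4 copies were all higher in the overexpressing ESCs while only Usp17lb was called in embryos. On GRCm38.p6 the windows are chr7:104856766-104857065 on the plus strand for Usp17la, chr7:104842534-104842833 on the minus strand for Usp17lb, chr7:103416446-103416745 on the plus strand for Usp17lc and chr7:103252456-103252755 on the minus strand for Usp17ld. Each is written 5′ to 3′. The capitals mark a CACACCC stretch and, 75 bases further on, the TATAAA stretch or the bases that stand in its place.
Usp17la: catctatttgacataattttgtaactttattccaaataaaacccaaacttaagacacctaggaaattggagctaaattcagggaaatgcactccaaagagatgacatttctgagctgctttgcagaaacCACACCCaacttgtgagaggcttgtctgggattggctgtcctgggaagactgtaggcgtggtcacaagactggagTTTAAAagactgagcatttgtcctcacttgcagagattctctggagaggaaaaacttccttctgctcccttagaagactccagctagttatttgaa
Usp17lb: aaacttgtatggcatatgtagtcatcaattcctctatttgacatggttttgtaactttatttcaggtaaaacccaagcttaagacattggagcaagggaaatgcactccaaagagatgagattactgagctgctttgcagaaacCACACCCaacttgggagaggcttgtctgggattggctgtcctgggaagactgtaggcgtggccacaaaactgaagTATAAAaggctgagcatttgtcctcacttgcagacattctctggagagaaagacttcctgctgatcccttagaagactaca
Usp17lc: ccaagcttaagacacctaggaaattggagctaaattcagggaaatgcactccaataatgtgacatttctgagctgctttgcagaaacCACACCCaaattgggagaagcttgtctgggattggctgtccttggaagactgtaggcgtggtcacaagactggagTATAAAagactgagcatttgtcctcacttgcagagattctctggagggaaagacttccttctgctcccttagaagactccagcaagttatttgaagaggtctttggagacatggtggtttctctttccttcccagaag
Usp17ld: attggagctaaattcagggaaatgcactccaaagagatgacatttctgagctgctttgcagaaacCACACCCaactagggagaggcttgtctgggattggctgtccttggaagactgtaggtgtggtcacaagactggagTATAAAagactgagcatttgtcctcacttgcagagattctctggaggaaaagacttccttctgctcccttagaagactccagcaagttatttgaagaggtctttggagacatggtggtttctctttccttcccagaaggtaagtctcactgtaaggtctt
The windows aligned with 92.1% to 97.4% identity, so the 4 genes share most of this sequence. The letters TATAAA, the core of a TATA box, were found in Usp17lb, Usp17lc and Usp17ld. Counted from the annotated start, the first base lay at -31 in Usp17lb, -88 in Usp17lc and -110 in Usp17ld. The position relative to the annotated start thus differed between these genes, while the distance from CACACCC was 75 bases in each. These positions depend on where each start was annotated, and where transcription starts was not tested. The whole Usp17lc window lies inside the GENCODE span of that gene, so its RefSeq start is not the GENCODE gene start. At the same distance from CACACCC, Usp17la has TTTAAA, the substitution A2T counted from the first base of TATAAA. On either strand, TATAAA occurs in 13.6% and CACACCC in 7.95% of all 32851 promoter windows. TGCACAC, a motif known for Zscan4 and present in 4.4% of windows, did not occur in these 4 on either strand, and nor did a motif of the homeobox factor Dux, present in 0.0335%, which says only that these letters are not in these windows. TATAAA and CACACCC were picked after the windows had been seen.

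Values below are normalised reads, that is, the reads counted on a gene after division by a size factor of the library. Between 21820093 and 26555027 reads fell on genes in an ESC library and between 695524 and 1432566 in an embryo library, so that 1 read was worth 0.687 to 1.39 normalised reads in embryos. As a check of the labels, the summed Zscan4 genes stood at 20005 and 19449 in the overexpressing ESCs, against 152 and 212 in control ESCs. In embryos the Zscan4 sum was 13.9 to 383 with RNAi (median 218), against 345 to 1064 in controls (median 680.5), so those groups overlapped. Differences were tested with limma on log2(value + 1) across a whole table, and a gene was called where its Benjamini-Hochberg adjusted p was under 0.05. A log2 fold change is on that scale, on which low genes appear to change less than they do. A plain fold is the ratio of the group means.

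The first comparison asks how these genes differ between ESCs with more Zscan4 and control ESCs. All 5 Usp17l genes and Tcstv3 rose in the overexpressing ESCs, by 7.47-fold to 21.6-fold, while the much lower Tcstv1 did not pass the threshold. The Usp17l sum was 436 ± 72.6 with overexpression and 30.2 ± 0.369 in controls, a 14.4-fold difference (SD, n = 2 each). The Tcstv sum was 96.7 ± 28.5 and 6.58 ± 5.26, a 14.7-fold difference (SD, n = 2 each). In the overexpressing ESCs 6 of the 7 members were higher at an adjusted p under 0.05 and 0 lower, where 11.7% of all 20888 genes tested were higher and 11.4% lower. For all 7 members both overexpression libraries lay above both controls, which held for 34.2% of the genes tested. All 7 passed the filter on low values, but Tcstv1 and Usp17ld only through their overexpression libraries, so for these 2 genes the test could not have shown a fall.

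Tcstv3 had 73.8 and 110.9 normalised reads in the overexpressing ESCs, against 2.86 and 9.36 in the controls. Both overexpression libraries stood well above both controls, at 15.1-fold in the mean (log2 fold change 3.86, SE 0.63, limma adjusted p = 0.0248). Tcstv1 had 2.73 and 5.96 normalised reads with overexpression, against 0 and 0.936 in controls. These are 8 reads against 1 read, a ratio of 8.75 with a 95% exact binomial interval of 1.17 to 388 that covers counting error only, and the gene did not pass (log2 fold change 1.87, SE 0.64, limma adjusted p = 0.101). Nearly all of the Tcstv signal in ESCs was therefore Tcstv3: its share of the sum was 95.7% ± 1.08 with overexpression and 95.5% ± 6.43 in controls (SD, n = 2 each). The control shares rest on Tcstv sums of 3 and 11 reads.

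**Figure D1:**
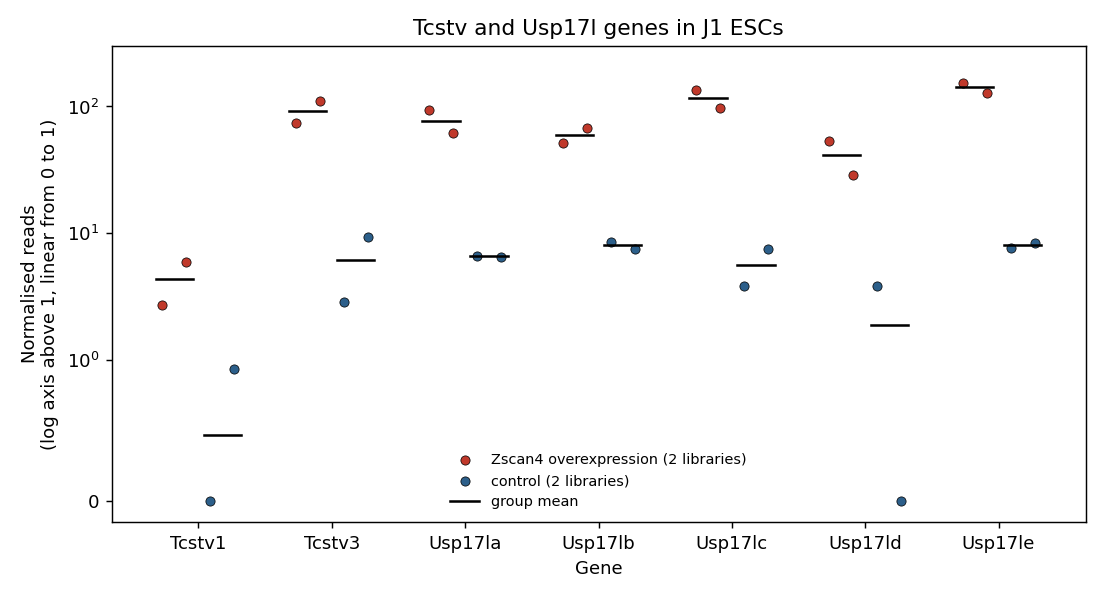
Normalised reads of the 7 genes in each ESC library, overexpression (red) left of control (blue), with a bar at each group mean; the vertical axis is logarithmic above 1 and linear from 0 to 1. For every gene both overexpression points lie above both control points, and Tcstv1 stays below 6 normalised reads.

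Among the 5 Usp17l genes Usp17le had the most normalised reads in the overexpressing ESCs. It had 154 and 129 normalised reads there, against 7.62 and 8.43 in controls, 17.6-fold (log2 fold change 3.98, SE 0.33, limma adjusted p = 0.0119). Usp17lc followed with 135 and 97.8, against 3.81 and 7.49 in controls, 20.6-fold (log2 fold change 4.18, SE 0.47, limma adjusted p = 0.0153). The groups were far apart for both genes.

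Usp17la had 93.0 and 62.0 normalised reads with overexpression, against 6.67 and 6.55 in controls, 11.7-fold (log2 fold change 3.34, limma adjusted p = 0.0167). Usp17lb had 52.0 and 68.0, against 8.57 and 7.49, 7.47-fold (log2 fold change 2.75, limma adjusted p = 0.0194). Usp17ld had 53.8 and 28.6, against 3.81 and 0, 21.6-fold on 4 control reads (log2 fold change 4.20, SE 0.92, limma adjusted p = 0.0415). Of the 5 Usp17l genes, Usp17lb thus had the smallest and Usp17ld the largest fold in the mean, though the standard errors of their log2 fold changes are wide beside that gap, and the difference between genes was not tested.

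The ESC calls depend on having both controls. The median SD over genes of log2 values was 0.41 with overexpression and 0.09 in the controls, and its part in this was not tested. With either control left out limma called 0 genes in the whole table (3617 and 3646 at an unadjusted p under 0.05) and so 0 members, with adjusted p-values of 0.252 to 0.260 for the 6 that had passed. With either overexpression library left out 4 members kept the call, and Tcstv3 (0.0783 and 0.105) and Usp17ld (0.165 and 0.133) lost it. Usp17ld also lost the call at a pseudocount of 0.5 (0.0573) and without the filter on low values (0.0511). The log2 ratio of the Tcstv sum was 3.23 without control 1 and 5.08 without control 2, against 3.88 with both.

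Values per kilobase of exon allow for gene length, but not for the 14.96% to 51.1% of 50-base stretches that also occur in other genes. By this measure the order in the overexpressing ESCs began with Tcstv3 at 119 ± 33.6 normalised reads per kilobase. Usp17le followed at 71.2 ± 9.01, Usp17lc at 47.4 ± 10.7, Usp17lb at 38.4 ± 7.24, Usp17la at 29.2 ± 8.25 and Usp17ld at 20.7 ± 8.96 (SD, n = 2). Tcstv1 was last at 3.11 ± 1.63. The libraries of Tcstv3 and Usp17le did not overlap, nor did those of Usp17le and Usp17lc or of Usp17ld and Tcstv1; the other neighbours in this order overlapped. In control ESCs all 7 lay between 0.335 and 7.84 normalised reads per kilobase, Tcstv3 highest and Tcstv1 lowest.

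The second comparison asks how these genes differ between 2-cell embryos with Zscan4 RNAi and control embryos. Usp17lb and Tcstv3 fell with RNAi, by 4.41-fold and 2.62-fold in the mean, and the other 5 members did not pass the threshold. That is 2 of 7 members lower and 0 higher, where 12.0% of all 16417 genes tested were lower and 6.13% higher. The Usp17l sum was 210.4 ± 118 with RNAi (n = 6) and 609 ± 173 in controls (n = 5), 2.90-fold lower with RNAi. RNAi libraries ran between 63.8 and 349 and controls between 367 and 803, so the sums did not overlap. The Tcstv sum was 351 ± 102 with RNAi and 608 ± 249 in controls, 1.73-fold lower with RNAi, and the groups overlapped.

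Usp17lb had 8.13 normalised reads in the lowest RNAi library and 212 in the highest (median 118), against 593, 668, 323, 570.1 and 383 in controls 1 to 5. Every RNAi library lay below every control, which held for 4.28% of the genes tested (log2 fold change -2.68, SE 0.59, limma adjusted p = 0.00588). The lowest value was that of RNAi 4, the library with the lowest Zscan4 sum. The other RNAi libraries did not follow that order. RNAi 2 had the highest Usp17lb value at a Zscan4 sum of 164, and RNAi 3 had 74.3 at a Zscan4 sum of 379. Usp17lb kept its call in all 18 alternatives tried, with adjusted p-values of 0.00167 to 0.0219.

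Tcstv3 had 75.7 to 226 normalised reads with RNAi (median 100.3), against 351, 598, 260.2, 252 and 206 in controls 1 to 5. The groups overlapped through RNAi 1 at 226 and control 5 at 206 (log2 fold change -1.39, SE 0.34, limma adjusted p = 0.0102). Its call also held in all 18 alternatives, at 0.00396 to 0.0403, the highest without control 2. Tcstv1 had 129.8 to 294 normalised reads with RNAi (median 239), against 283, 428, 218, 254 and 188 in controls. Most of the RNAi range lay within the control range, and the gene did not pass (log2 fold change -0.29, SE 0.30, limma adjusted p = 0.529).

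The ratio of Tcstv1 to Tcstv3 within a library needs no scaling between libraries. It was 1.30, 0.957, 2.71, 2.46, 1.71 and 2.60 in RNAi 1 to 6, against 0.804, 0.716, 0.840, 1.01 and 0.910 in controls 1 to 5. In 5 of 6 RNAi libraries it lay above every control, and RNAi 2 lay among them. Tcstv1 accordingly made up 64.2% ± 9.84 of the Tcstv sum with RNAi and 46.0% ± 3.20 in controls (SD, n = 6 and 5). The 2 genes share part of their sequence and, having been chosen with these results known, the ratio is given without a test.

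**Figure D2:**
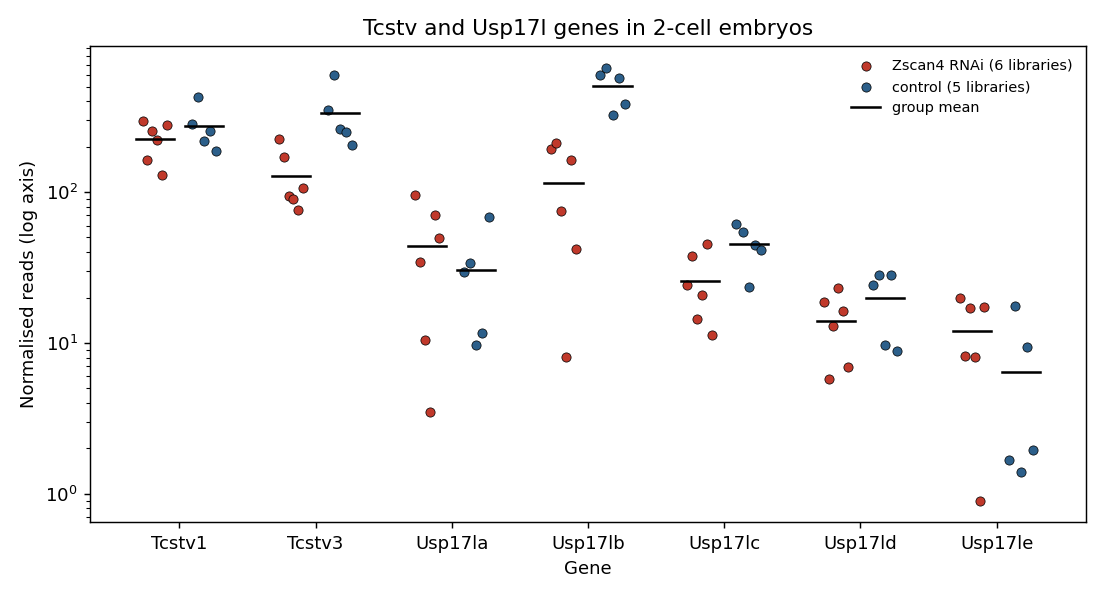
Normalised reads of the 7 genes in each embryo library on a log axis, Zscan4 RNAi (red) left of control (blue), with a bar at each group mean. Usp17lb is the gene whose groups do not overlap; Tcstv3 overlaps through 1 RNAi library and 1 control, and the other 5 genes overlap widely.

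The other Usp17l genes were lower in level than Usp17lb in control embryos and did not pass. Usp17lc had 11.3 to 45.1 normalised reads with RNAi (median 22.5), against 23.7 to 61.2 in controls (median 44.5), with an adjusted p of 0.154 in limma (log2 fold change -0.88, SE 0.43). Usp17ld had 5.74 to 23.2 with RNAi (median 14.6), against 8.80 to 28.1 in controls (median 24.3), with an adjusted p of 0.565 in limma. Both genes overlapped between the groups, and 50.4% of the 50-base stretches of Usp17ld also occur in Usp17lc, so their values are not independent.

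Usp17la and Usp17le had higher means with RNAi without passing the threshold. Usp17la ran between 3.48 and 95.4 normalised reads with RNAi (median 42.0), against 29.4, 33.9, 9.74, 11.7 and 68.4 in controls 1 to 5 (log2 fold change 0.22, SE 0.69, limma adjusted p = 0.853). Its highest values were in RNAi 1, RNAi 5 and control 5. Usp17le ran between 0.902 and 19.9 with RNAi (median 12.6), against 1.68, 17.7, 1.39, 9.37 and 1.96 in controls (log2 fold change 0.98, SE 0.72, limma adjusted p = 0.365). These rest on 80 reads in the 6 RNAi libraries and 37 reads in the 5 controls together. The controls alone ran between 1 and 24 reads, and the groups overlapped.

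The make-up of the Usp17l signal differed between the groups of embryos. Usp17lb made up 12.7% to 71.2% of the Usp17l sum in RNAi libraries (median 54.9%), against 76.1% to 87.9% in controls (median 83.6%), so the shares did not overlap. Usp17la made up 5.45% to 39.0% with RNAi (median 17.7%), against 1.76% to 13.6% in controls (median 4.14%). Usp17le held 0.306% to 13.7% with RNAi, against 0.236% to 2.21% in controls. In RNAi 4, whose Usp17l sum was the lowest at 63.8, Usp17ld and Usp17lc had the largest shares. As the shares of a library add up to the whole, a lower Usp17lb raises the others.

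**Figure D3:**
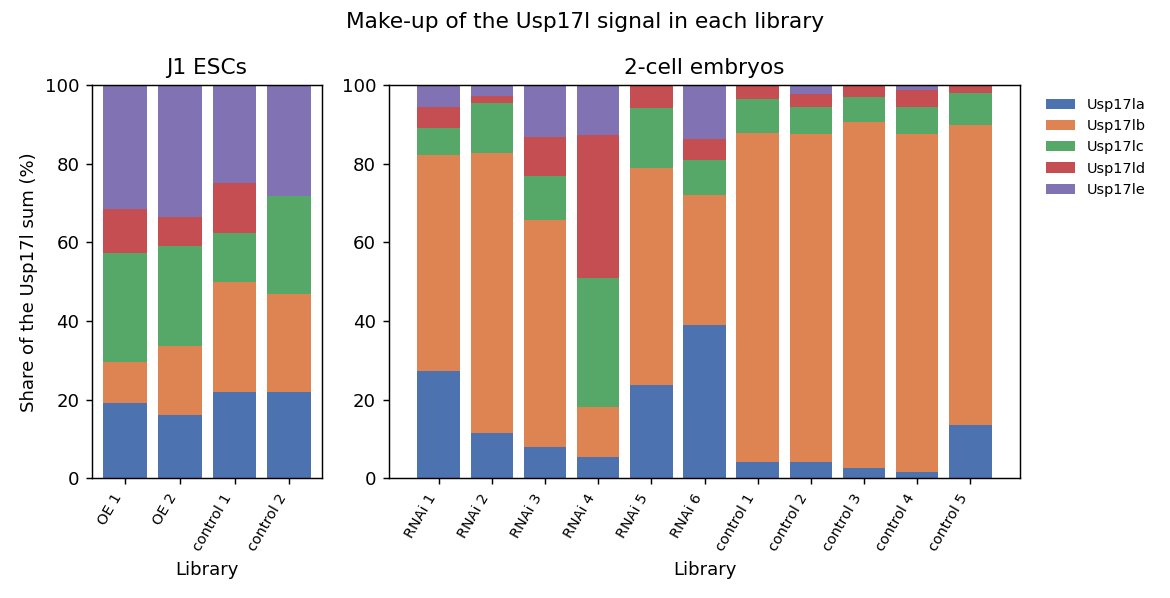
Share of each Usp17l gene in the Usp17l sum (vertical axis, %) in each ESC library (left panel) and embryo library (right panel), with Zscan4 overexpression or RNAi libraries left of the controls. Usp17lb fills over 76% of the bar in every control embryo and less in every RNAi library, while in ESCs the 5 genes are more even.

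Shares within a library can also be set between the tables, although levels cannot, as the tables were scaled apart. In overexpressing ESCs Usp17lb was 14.2% ± 4.94 and Usp17le 32.5% ± 1.31 of the Usp17l sum. In control ESCs both were 26.6% ± 2.21 (SD, n = 2). Each of these control shares rests on 8 or 9 of 32 reads in a library, so counting error is large beside that SD. In control embryos the corresponding means were 83.3% ± 4.45 for Usp17lb and 0.924% ± 0.857 for Usp17le (SD, n = 5). Likewise Tcstv1 was 3.57% and 5.10% of the Tcstv sum in overexpressing ESCs, against 46.0% ± 3.20 in control embryos. Cell type and library differ together between the tables, so their part in this cannot be told apart.

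Per kilobase of exon the order in RNAi embryos was Tcstv3 at 163 ± 75.0 normalised reads per kilobase and Tcstv1 at 159.9 ± 46.7, with Usp17lb at 73.7 ± 54.4. Usp17la (16.5 ± 13.3), Usp17lc (10.4 ± 5.42), Usp17ld (7.02 ± 3.41) and Usp17le (5.99 ± 3.69) followed (SD, n = 6). In control embryos the order was Tcstv3 at 428 ± 201, Usp17lb at 325 ± 94.3 and Tcstv1 at 196 ± 66.6. Usp17lc (18.3 ± 5.86), Usp17la (11.5 ± 8.90), Usp17ld (9.96 ± 4.90) and Usp17le (3.23 ± 3.59) came after them (SD, n = 5). In the controls Tcstv1 and Usp17lc were the neighbours whose libraries did not overlap; all other neighbours in the control order overlapped. In RNAi embryos all neighbours overlapped. As in ESCs, these orders do not allow for sequence shared with other genes.

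**Figure D4:**
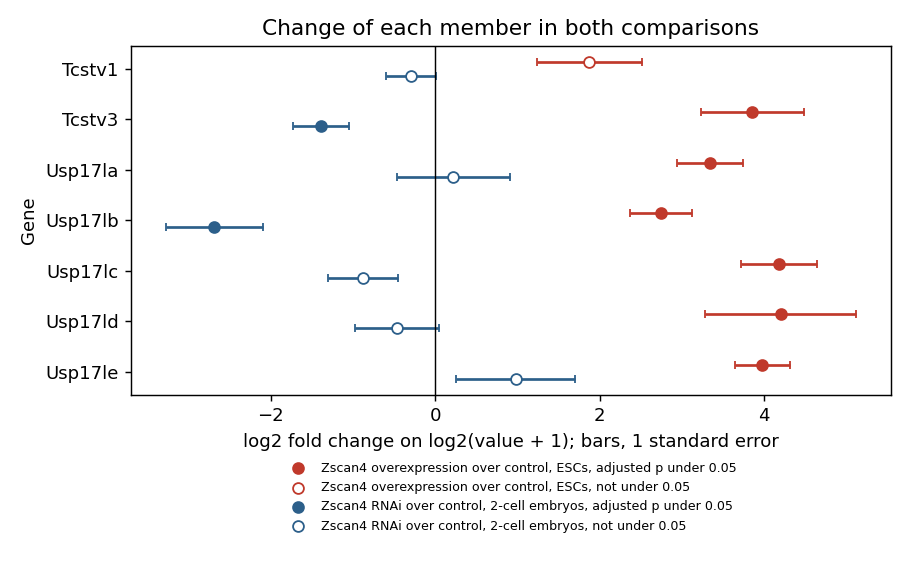
log2 fold change of each gene with 1 standard error from limma, for Zscan4 overexpression over control ESCs (red) and Zscan4 RNAi over control embryos (blue); filled points have an adjusted p under 0.05. All 7 genes lie right of 0 in ESCs, and in embryos Tcstv3 (-1.39) and Usp17lb (-2.68) are the filled points left of 0.

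The genes around Tcstv1 and Tcstv3 were examined next, since the region holds further multicopy genes. Within 100 kb of a Tcstv member the annotation lists 13 other genes. In ESCs 7 of them were tested, and 4 rose with overexpression and 0 fell, where 11.7% of all genes rose. Of the 7, AF067063, B020031M17Rik and BC147527 passed the filter on low values only through the overexpression libraries, and a fall could not have been seen for them. In embryos 8 were tested, and 7 fell with RNAi and 0 rose, where 12.0% of all genes fell. The 1 tested gene that did not pass in embryos was the pseudogene Gm21358, at 5.63 ± 5.26 with RNAi and 7.23 ± 6.22 in controls.

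Some of these neighbours resemble the members in sequence. The longest transcript of AF067061 was 92.5% identical to that of Tcstv1 and 91.7% to that of Tcstv3, and BC147527 was 91.0% identical to Tcstv3. AF067061 had 164 and 213 normalised reads in the overexpressing ESCs, against 2.86 and 11.2 in controls (log2 fold change 4.78, limma adjusted p = 0.0194), a call lost with either overexpression library left out (0.0747 and 0.0910). In embryos it averaged 80.7 ± 53.6 with RNAi (n = 6) and 200.4 ± 44.1 in controls (n = 5), and its limma adjusted p was 0.0117 (0.0510 in edgeR). BC147527, which overlaps Gm20900 and is uncertain for that reason, had 11.9 in both overexpression libraries and no control read, at least 8.39-fold higher against a floor of 3 reads over the group. With RNAi it averaged 62.5 ± 31.2, against 231 ± 108 in control embryos (log2 fold change -1.96, limma adjusted p = 0.00511).

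AF067063 fell to 76.7 ± 39.5 normalised reads with RNAi, against 333 ± 113 in control embryos (log2 fold change -2.20, limma adjusted p = 0.00226). Every RNAi library of AF067063 lay below every control, which held for 4.28% of the genes tested. It shares 70.7% of its 50-base stretches with Gm21731, which lies on the Tcstv3 side and averaged 62.0 ± 43.9 with RNAi and 271 ± 109 in controls (log2 fold change -2.38, limma adjusted p = 0.00384). D13Ertd608e averaged 23.6 ± 20.0 with RNAi and 146 ± 69.8 in controls (log2 fold change -2.87, limma adjusted p = 0.00269). In ESCs it averaged 31.1 ± 11.7 with overexpression and 3.31 ± 0.708 in controls (log2 fold change 2.86, limma adjusted p = 0.0267).

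Gm21761 and B020031M17Rik, predicted genes often listed with the 2-cell programme, also lie within 100 kb of Tcstv1. Gm21761, which overlaps the pseudogene Gm21181 and is uncertain for that, averaged 465 ± 142 in overexpressing ESCs and 9.39 ± 7.90 in control ESCs, and 31.5 ± 22.1 in RNAi embryos and 90.3 ± 27.0 in control embryos. Its ESC call was lost with either overexpression library left out (limma adjusted p = 0.0596 and 0.0770) and its embryo call in edgeR (0.0520). B020031M17Rik averaged 19.1 ± 8.03 in RNAi embryos and 79.4 ± 20.8 in control embryos (limma adjusted p = 0.00365). In ESCs it had 6 overexpression reads and no control read, at least 2.19-fold higher, and did not pass. Like the called members, the Tcstv neighbours called in ESCs lost their calls with either control left out.

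**Figure D5:**
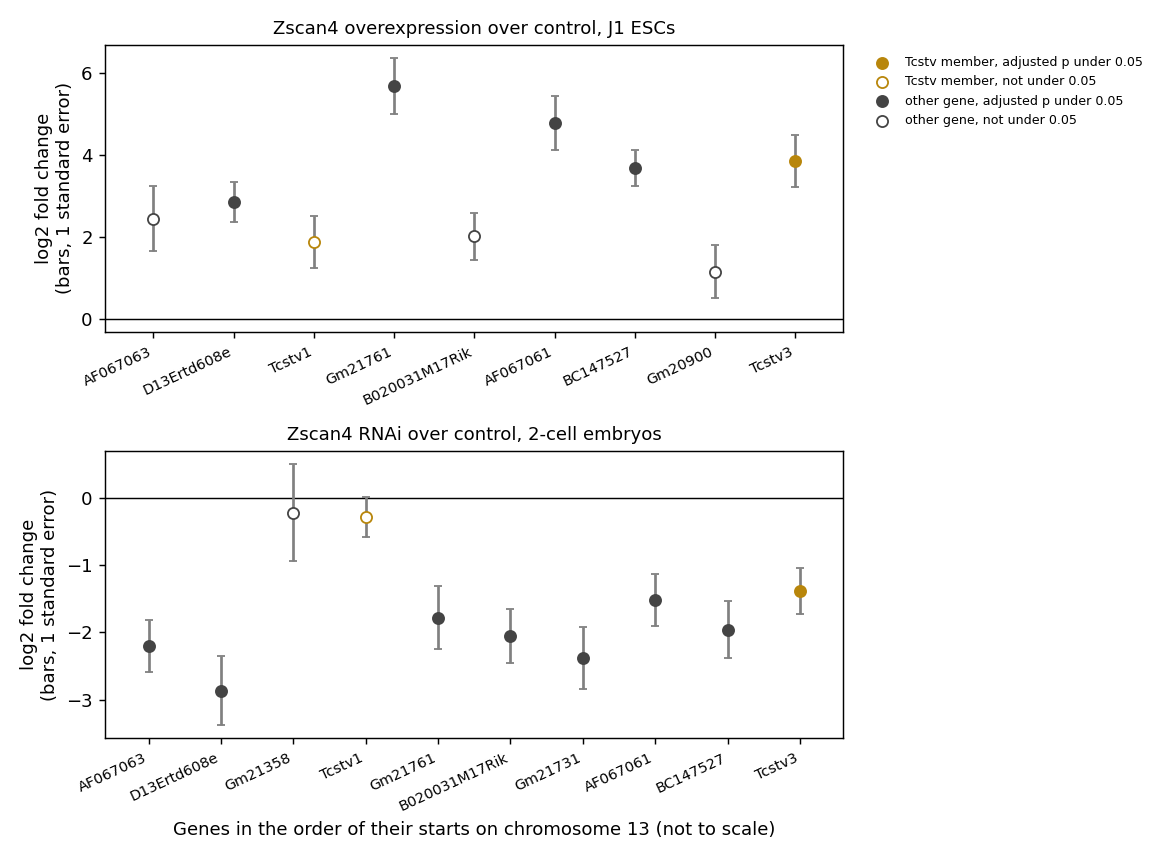
log2 fold change with 1 standard error from limma for the tested genes within 100 kb of Tcstv1 or Tcstv3, in chromosomal order, for ESCs (top) and embryos (bottom); Tcstv members are gold, other genes dark, and filled points have an adjusted p under 0.05. In embryos Tcstv1 and Gm21358 are the 2 open points among filled points that lie between -1.39 and -2.87.

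Other genes of the 2-cell programme give the setting for these changes. Of a list of 57 such genes outside Tcstv, Usp17l and Zscan4, 41 were tested in ESCs, and 26 rose and 2 fell with overexpression (median log2 fold change 3.51, against -0.02 over all genes tested), where 11.7% of all genes rose and 11.4% fell. Of these 41 genes, 23 passed the filter on low values only through the overexpression libraries, among them 15 of the 26 that rose, so the count and the median are given as a description. In embryos 51 were tested, and 2 rose and 26 fell with RNAi (median -1.78, against -0.03 over all genes), where 6.13% of all genes rose and 12.0% fell. Gm21761 and B020031M17Rik are in this list too. The PRAME family gene Pramel7 had 905 ± 75.7 normalised reads in overexpressing ESCs and 1 read in the controls together, a ratio of 1902 with a 95% exact binomial interval of 341 to 75158. Pramef17 had 566 ± 24.2 with overexpression and 3 control reads, a ratio of 398 (136 to 1933). The genes that fell were Zfp750, at 74.9 ± 33.4 with overexpression and 637 ± 13.6 in controls, and Ddit4l, at 133 ± 15.02 and 395 ± 13.9.

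In embryos the lowest p-values of that list among genes that fell were those of Obox6 and Rfpl4b. Obox6, a homeobox gene, averaged 119 ± 61.6 normalised reads with RNAi and 613 ± 190.3 in controls (limma adjusted p = 0.00111). Rfpl4b averaged 25.6 ± 30.1 with RNAi and 303 ± 166 in controls (limma adjusted p = 0.00147). Zfp750 rose to 113 ± 74.5 with RNAi, against 23.4 ± 18.6 in controls, and Duxf3, a gene of the Dux array, stood at 27.8 ± 38.2, against 0.699 ± 1.10 in controls. The RNAi median of Duxf3 was 10.8 and its highest library 103, against 4 reads in the controls together. Duxf3 passed the filter on low values only through the RNAi libraries, so a fall could not have been seen for it. The count of genes that fell was 12 in edgeR, against 26 in limma.

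The list of deubiquitinase genes outside Usp17l holds 82 genes, of which 76 were tested in ESCs, with 7 higher and 7 lower (median log2 fold change -0.01), and 76 in embryos, with 9 higher and 9 lower (median -0.27). Over all genes tested 11.7% were higher and 11.4% lower in ESCs, and 6.13% higher and 12.0% lower in embryos. In ESCs Usp9y, a Y-linked gene, had no control read and 15.4 ± 6.59 normalised reads with overexpression, at least 11.3-fold higher. It passed the filter on low values only through the overexpression libraries, so a fall could not have been seen for it. Otud5 averaged 3703 ± 392.3 with overexpression and 1958 ± 62.9 in controls. Usp11 averaged 1248 ± 282 with overexpression and 4818 ± 20.7 in controls, and Usp2 109 ± 2.33 and 326 ± 9.32.

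In embryos Usp2 averaged 264 ± 117 with RNAi and 44.8 ± 31.4 in controls, and Uchl1, a ubiquitin hydrolase abundant in oocytes, 1168 ± 475 and 407 ± 71.3. Otud6b averaged 126 ± 54.1 with RNAi and 409 ± 150.4 in controls. Usp22, the deubiquitinase of the SAGA complex, averaged 7.50 ± 9.60 with RNAi and 94.9 ± 81.4 in controls (limma adjusted p = 0.00612). With single libraries left out the embryo counts ran between 4 and 10 higher and between 5 and 12 lower.

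The RNAi libraries also differed from the controls in genes unlike these. The summed level of 14 oocyte markers was 4325 to 12581 normalised reads with RNAi, against 2408 to 4328 in controls, with 5 of 14 higher and 0 lower, where 6.13% of all genes were higher and 12.0% lower. Control 5 had the highest mean log2 level of these markers among controls, 6.94 against 6.02 to 6.39 in the others and 6.81 to 8.04 with RNAi. It also had the lowest Tcstv sum among controls, 394, and the lowest Zscan4 sum, 345. Its Usp17l sum was 503, while the lowest among controls, 367, was that of control 3. The part of such differences in the results for Tcstv3 and Usp17lb was not tested; without control 5 their adjusted p-values were 0.00563 and 0.00601. In such bulk samples fewer cells in a state and less RNA per cell cannot be told apart, which holds for the ESC results as well.

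Markers of fibroblasts and cumulus cells were at low levels in embryos, while the blood markers reached higher sums. The 10 fibroblast markers summed to 18.9 to 53.4 normalised reads with RNAi, against 21.1 to 36.1 in controls, with Col3a1 at 0. The 10 cumulus markers summed to 4.34 to 12.6 with RNAi, against 1.68 to 16.97 in controls, with Has2, Inha, Amh and Inhba at 0. The 6 blood markers summed to 7.81 to 147 with RNAi, against 28.5 to 70.4 in controls, with Hbb-bs and Hbb-bt at 0. In ESCs, 9 of 10 ESC markers were in the table and summed to 97710.2 to 112319 with overexpression, against 89857 to 90693 in controls. The ESC fibroblast list summed to 28239 to 46658 with overexpression, against 36209 to 39187 in controls, with 2 of 7 tested higher and 2 lower. The 10 cumulus markers summed to 448 to 654 in the overexpressing ESCs, against 194 to 198 in control ESCs, with 2 higher and 1 lower. Of these 10, 1 passed the filter on low values only through overexpression and 1 only through the controls. The 14 oocyte markers summed to 1137 to 2086 in the overexpressing ESCs, against 954 to 1082 in control ESCs. Of the 11 tested, 2 were higher and 0 lower. Only through overexpression did 2 of the 11 pass the filter on low values, among them 1 of those called higher, and 2 passed only through the controls. Their mean log2 level was 3.22 and 4.08 in overexpression libraries 1 and 2, against 3.19 and 3.26 in the controls, so library 1 lay between the controls. Over all ESC genes tested 11.7% were higher and 11.4% lower. The part of these markers in the ESC results was not tested.

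Over the embryo libraries, genes were ranked by how closely they varied with each family. The measure was Pearson's r of log2 values after subtraction of the group means, over 11 libraries and 9266 genes with a mean of at least 10, given as a description. The Usp17l sum was closest to Gm5117 (r = 0.946), Gm48419 (0.939), 1110038F14Rik (0.939), Uhrf2 (0.938) and Gm10052 (0.933). With any 1 library left out these values stayed at 0.868 or above. Of the 5, Gm5117 (log2 fold change -1.83), Gm48419 (-3.50) and 1110038F14Rik (-2.36) also fell with RNAi in limma, at adjusted p-values of 0.0247, 0.00360 and 0.00727.

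The Tcstv sum was closest to Ift74 (r = 0.902), Dleu2 (0.888), Gm3333 (0.853), Uba3 (0.826) and Zfp616 (0.823), none of which passed the threshold in limma. Left-out libraries lowered these values to 0.694 at the least. By the same measure the Zscan4 sum had an r of 0.692 with the Usp17l sum and of 0.19 with the Tcstv sum. The family sums had an r of 0.237 with each other. Medians over the genes ranked were 0.05 for the Usp17l sum and 0.02 for the Tcstv sum. These r values between sums were not recomputed with libraries left out. RNAi 4 was the lowest library for both the Zscan4 sum (13.9) and the Usp17l sum (63.8), and its weight in the 0.692 was not tested. The libraries share depth and library-wide composition, so such values carry no test.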

How the data were processed

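Per the submitters' processing notes, the tools were Trimmomatic, HISAT2 and featureCounts and the build was mm10. Which annotation, strand and multi-mapping settings were used is not given in the sources used here. Genomic DNA is the labelled molecule, while every title says RNA-Seq. The authors deposited 2 tables of normalised signal. The values themselves show that each is a read count over a size factor of its library: 100% of them are whole multiples (within 0.01 of 1 read) of 1 step per library. The embryo control columns are numbered 1 to 5 and the titles otherwise, so those numbers only name libraries.

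limma 3.58.1 with a trend was fitted in R 4.3.3 to log2(value + 1) within each table, without covariates, on genes that reached a value of 1 in 2 or more ESC or 5 or more embryo libraries (20888 and 16417 genes). On whole reads recovered from the values, edgeR 4.0.16 (quasi-likelihood) called 4510 ESC and 2169 embryo genes, against 4843 and 2983 in limma, and DESeq2 1.42.0 called 5521 and 3304. The genes of each list that are named had the 2 smallest p-values in each direction; all members and the called Tcstv neighbours are given. Members and lists were chosen with earlier results of these data known. Symbols were matched to GENCODE vM21 and RefSeq (GRCm38.p6). No batch is labelled.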

Additional observations from a re-analysis of the deposited data

How the results depend on the processing

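In embryos, 2 members were called under all 18 alternatives, Usp17lb and Tcstv3 in each. The log2 ratio of the Usp17l sum ran between -1.74 and -1.35 and that of the Tcstv sum between -0.94 and -0.52 over all alternatives. Usp17la, never called, changed sign without RNAi 1 (-0.12), RNAi 5 (-0.04), control 3 (-0.09) or control 4 (-0.03), and with a library left out ran between -0.12 and 0.76. Gm21358 did so without RNAi 5 (0.06), control 1 (0.11) or control 4 (0.08), with a range of -0.62 to 0.11. Genes called in embryos numbered 1730 without control 2, the lowest, to 3578 without control 5, the highest, against 2983. The 2-cell list had 12 genes lower in edgeR and 18 to 32 with a library left out, against 26. Deubiquitinases had 4 to 10 higher and 5 to 12 lower with a library left out, against 9 and 9.

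In ESCs, leaving out 1 library gave 0 (either control) to 10855 (without overexpression replicate 1) genes called, against 4843, and 0 to 4 members, against 6. A lone library is then assumed to vary like the other group. The 2-cell list had 0 to 18 genes higher and 0 to 2 lower, against 26 and 2, and deubiquitinases 0 to 24 higher and 0 to 33 lower, against 7 and 7. The log2 ratio of the Usp17l sum ran between 3.67 and 4.01 with a library left out, against 3.85, and that of the Tcstv sum between 3.23 and 5.08, against 3.88. With the ESC numbers as a replicate block 6 members and 6024 genes were called. Same-numbered libraries did not deviate together over genes (r = -0.0072), but 2 libraries per group cannot settle whether they were paired. No paired analysis was possible in embryos because the control columns do not carry the numbers of the labels. The causes of these changes were not tested. Few reads limit the ESC controls, where each member rests on 1 to 17 reads in both libraries together.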

Other observations

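The surroundings of the Usp17l genes, mostly olfactory receptor genes, held little RNA. Within 100 kb of a member the annotation lists 45 other genes, of which 3 had any read in ESCs and 16 in embryos. None of the 3 reached the filter in ESCs. In embryos 6 were tested with limma, and 1 was higher and 1 lower with RNAi, where 6.13% of all genes were higher and 12.0% lower. The lincRNA gene Gm45272, whose nearest member is Usp17la, averaged 37.5 ± 14.8 normalised reads with RNAi (n = 6) and 11.7 ± 4.04 in controls (n = 5), and the groups did not overlap (limma adjusted p = 0.0186; 0.0557 without control 4). The miRNA gene Gm25171, whose nearest member is Usp17ld, averaged 1.04 ± 1.37 with RNAi and 7.07 ± 3.37 in controls (limma adjusted p = 0.0179), and its call was lost in edgeR (0.0790) and without the filter on low values (0.0583).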
